A study of Homo sapiens with 2 samples.

Results

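The sites described here were the 3′UTR positions at which FLAG-tagged RBMS3 libraries showed a deletion in a large share of the reads. They were selected on a measured value: a listed position qualified when its deleted base lay in an annotated 3′UTR on the same strand and at least 30% of the tags that covered it carried the deletion. Of 27706 listed positions, 21230 lay in a 3′UTR and 2740 of those qualified. Over the whole list 29.9% of positions had a deletion percentage of 30% or more, and over the 3′UTR positions 12.9% had one. The other 18490 3′UTR positions, with deletions in under 30% of tags, served as the comparison. For brevity the 2 kinds are called high-percentage and low-percentage sites. Deletion percentage and tag depth could not be told apart for most of them: every low-percentage site had at least 110 tags, and 2642 of the 2740 high-percentage sites had fewer than 100.

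The study mapped RBMS3 binding by CLIP-seq, in which ultraviolet light joins a protein to the RNA it touches and the joined RNA is purified and sequenced. The cells were MDA-MB-231, an established human breast cancer line of mesenchymal appearance, stably transduced with a lentiviral pLX302 vector that expressed RBMS3 with 2 FLAG tags at its amino end from the EF1a promoter. There was 1 group with 2 biological replicates, no control was analysed here, and cells were irradiated at 254 nm with 400 mJ/cm2. Both replicates were merged into 1 list before deposit, so each site had 1 value and no spread between replicates could be given. The label of 1 replicate names the source as MDA-MB-232 although its title reads MDA-MB-231.

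RBMS3 belongs to a small family of proteins with RNA recognition motifs that bind single-stranded nucleic acid and is known for binding AU-rich stretches in the 3′UTRs of mRNAs. The 3′UTR runs from the stop codon to the cleavage site where the poly(A) tail is added, and the cleavage machinery recognises a short poly(A) signal, usually AAUAAA, a little upstream of that site. Alternative cleavage sites give one gene several 3′UTR lengths, and proteins and microRNAs that bind along the 3′UTR set mRNA stability, translation and localisation. When reverse transcriptase copies an RNA that still holds a crosslinked amino acid remnant, it often skips the joined base, so a deletion that recurs at one base marks a candidate contact point. The deletion percentage is the number of tags with the deletion over the number of unique tags that covered the base. It is not a measure of transcript level or of occupancy.

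The following sites show what the class looked like at its deepest end and in genes that had no other kind of site. Each sequence is 21 nt of hg38 on the transcript strand, 5′ to 3′ and in DNA letters, with the listed interval before it. Capitals mark the run of identical bases that holds the deleted base, because a deletion inside a run cannot be assigned to one base of it. The first group gives the 5 high-percentage sites with more than 1000 tags.
ZFP36L1, chr14:68788608-68788628, minus strand: cAAAAAAAAAAtgagagaaaa
G0S2, chr1:209676360-209676380, plus strand: attttgaaatAAAAAAActtt
FOXF2, chr6:1395561-1395581, plus strand: tgttgtaaaaTTTTTTTTcaa
SNAPC5, chr15:66493821-66493841, minus strand: taaataaaTTTataagtagcc
DIS3, chr13:72759048-72759068, minus strand: aaaaacagaTTaattagtggc
The second group gives sites of genes whose 3′UTR sites were all high-percentage.
ST3GAL2, chr16:70379538-70379558, minus strand: cacacTTTTTTatttccttcc
TTC39B, chr9:15171558-15171578, minus strand: tcattgcaTTTaaaatagctt
TTC39B, chr9:15171592-15171612, minus strand: tgcctgtaTTTaaatttcaga
GDAP2, chr1:117877242-117877262, minus strand: gtgcagtgTTTatacagcaaa
WDSUB1, chr2:159235867-159235887, minus strand: tctttAAAAAAcacatggact
SS18L1, chr20:62182394-62182414, plus strand: ttatcggttaTTTTTTTTTca
NFYB, chr12:104118990-104119010, minus strand: aagaatgtGGGaatatattta
RAPGEF5, chr7:22118334-22118354, minus strand: aaTTTTTTTTTaaaactgctt
The third group gives sites at which every tag carried the deletion, from genes with the most high-percentage sites.
LAMP2, chrX:120437823-120437843, minus strand: aacaaaacttGcatctaacca
LAMP2, chrX:120428964-120428984, minus strand: gtgacgaagaGaaagagagta
CCND1, chr11:69652387-69652407, plus strand: catgtacttgTTTgcaagcag
CCND1, chr11:69653477-69653497, plus strand: aaaggttgctGtttcacaata
ITGAV, chr2:186677349-186677369, plus strand: agatttaaacTTTcttcatga
ARF6, chr14:49894368-49894388, plus strand: atttgaactcTggagttactg
ARF6, chr14:49895121-49895141, plus strand: tgtttttcctCttttttaaac
GNG12, chr1:67702655-67702675, minus strand: aataagggAAAtattttatat
ZFP36L1, G0S2 and FOXF2 had deletions in long A or T runs, of 10, 7 and 8 bases. In the third group 5 of 8 deleted bases, in LAMP2, CCND1 and ARF6, had no equal neighbour.

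Most high-percentage sites were shallow. They were covered by a median of 19 tags (quartiles 11 and 31, range 7 to 23840) and held a median of 15 deletions. Low-percentage sites had a median of 6324 tags and 72 deletions. The median deletion percentage of the high-percentage sites was 96.4%, and at 1338 of them, 48.8% (95% Wilson interval 47.0 to 50.7), every covering tag carried the deletion. These every-tag sites had a median of 12 tags and never more than 65. The remaining sites were spread evenly, with 156 between 30 and 40% and 174 to 235 in each further 10-point step up to 100%. All intervals given here cover counting error only, and sites of one gene can share tags.

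The lowest percentage that appeared in the list depended on depth. Among 3′UTR sites with 7 to 10 tags no site was listed under 77.8%, with 11 to 20 tags none under 50%, and with 21 to 50 tags none under 35.7%. Between 51 and 100 tags the lowest listed value was 32.4%. Above that depth the floor dropped to 3.78% for 101 to 1000 tags and to 0.0379% beyond. A site with few tags was therefore listed only with a high percentage. No low-percentage counterpart of the same depth was present for any site under 110 tags, which includes all 2642 sites under 100 tags. The shares for position, motifs, deleted base and annotation were for this reason also taken within 100 to 1000 tags, a range that held 93 high-percentage and 1570 low-percentage sites. Depth was closer there but not matched, with a median of 127 tags (quartiles 111 and 143) at high-percentage and 573 (quartiles 365.5 and 798) at low-percentage sites.

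**Figure D1:**
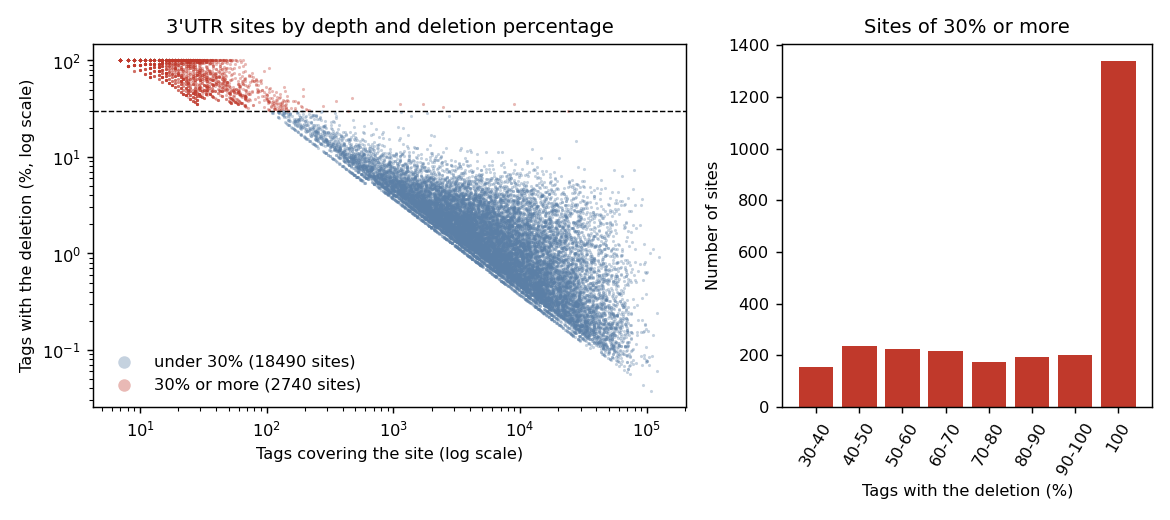
Left, tags covering each 3′UTR site (x axis, log scale) against the percentage of those tags with the deletion (y axis, log scale), 1 point per site, with a dashed line at 30%. Right, number of high-percentage sites in each 10-point step of deletion percentage and at exactly 100%; high-percentage sites crowd below 100 tags, low-percentage sites begin at 110 tags, and 1338 sites stand at 100%.

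The threshold of 30% fell in a continuous range of values. Just inside it were sites in STARD4, a sterol carrier, with 132 deletions in 439 tags, in ZFP36L1 with 7182 in 23840, and in CDS2, an enzyme of phospholipid synthesis, with 44 in 146, each 30.1%. Just outside it were sites in NAA25, a subunit of an amino-terminal acetyltransferase, with 67 in 224, in TBRG1 with 40 in 134, and in EEF1A1, the translation elongation factor, also with 40 in 134, each 29.9%. The intervals of these sites crossed the threshold on both sides: 26.0 to 34.5% for STARD4 and 24.3 to 36.2% for NAA25.

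High-percentage sites lay far from transcript ends. The deleted base was a median of 713.5 nt (quartiles 148 and 2079) upstream of the nearest annotated end, against 32 nt (quartiles 16 and 153) for low-percentage sites, with introns counted. Of the high-percentage sites 549 of 2740, 20% (18.6 to 21.6), lay within 100 nt of an end, against 13428 of 18490, 72.6% (72.0 to 73.3), of the others. The difference was -52.6 percentage points (95% Newcombe interval -54.2 to -50.9). The share near an end rose with depth among the high-percentage sites, from 15.2% with 7 to 10 tags through 20.2% with 21 to 50 tags and 27.9% with 51 to 100 tags to 38.9% with 101 to 1000 tags. Within 100 to 1000 tags the shares were 38.7% (29.4 to 48.9) and 57.0% (54.5 to 59.4), a difference of -18.3 points (-27.9 to -7.84). The gap kept its sign in this narrower range, where depth still differed, and was much smaller than over all depths.

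**Figure D2:**
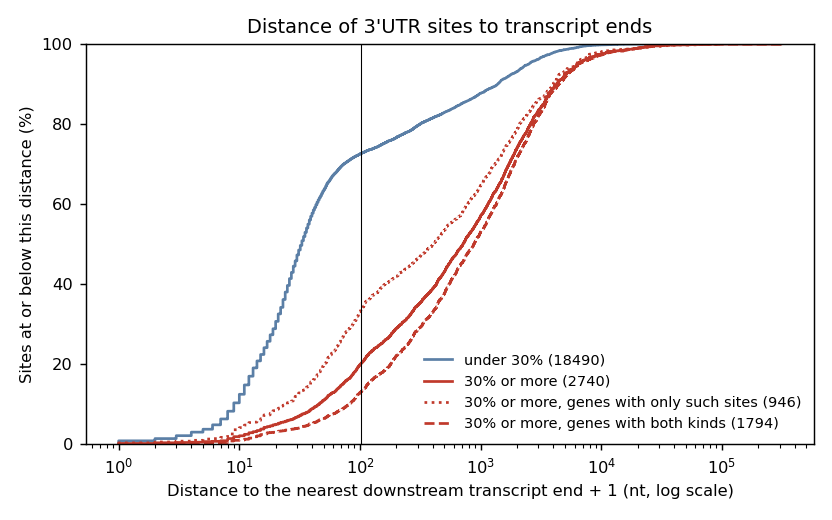
Cumulative percentage of 3′UTR sites (y axis) by distance from the deleted base to the nearest downstream annotated transcript end plus 1 nt (x axis, log scale), with a vertical line at a distance of 100 nt. The curve of all high-percentage sites crosses the line at 20% and that of low-percentage sites at 72.6%; high-percentage sites of genes with only such sites cross it at 33.4% and those of genes with both kinds at 13.0%.

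The poly(A) signal was seldom near high-percentage sites. The letters AATAAA were searched on the transcript strand in the 51 nt centred on the deleted base. They were present at 354 high-percentage sites, 12.9% (11.7 to 14.2), and at 10823 low-percentage sites, 58.5% (57.8 to 59.2). When the common variant ATTAAA was also accepted, the shares were 19.5% and 72.2%. The gap was present on both sides of the 100-nt limit: among sites within 100 nt of an end AATAAA was present at 26.4% of high-percentage and 62.7% of low-percentage sites, and farther away at 9.54% and 47.5%. Within 100 to 1000 tags the shares were 23.7% (16.2 to 33.2) and 37.5% (35.1 to 39.9), a difference of -13.8 points (-21.7 to -3.94).

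The AUA element of the study was likewise less frequent. This 7-nt pattern is A, G or T, then A or T, then ATA, then A or T, then A, and a match can contain AATAAA. It was searched on the transcript strand in the same window and found at 568 high-percentage sites, 20.7% (19.3 to 22.3), against 56.3% (55.6 to 57.0) of low-percentage sites. Counting only matches that did not hold AATAAA, the shares were 11.0% (9.87 to 12.2) and 16.2% (15.7 to 16.7), a much smaller gap than over all matches. Farther than 100 nt from an end these shares were 11.2% and 17.9%. Within 100 to 1000 tags any match was present at 26.9% and 41.9%, and a match without AATAAA at 7 of 93 and 221 of 1570 sites, 7.53% (3.69 to 14.7) and 14.1% (12.4 to 15.9), intervals that overlapped. The windows of high-percentage sites were also less AT-rich, with a median of 66.7% A or T against 72.5%, and within 100 to 1000 tags 70.6% against 72.5%.

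T was the deleted base at similar rates in both kinds. It was deleted at 1818 high-percentage sites, 66.4% (64.6 to 68.1), and at 65.3% (64.6 to 66.0) of low-percentage sites, a difference of 1.01 points (-0.904 to 2.89). The other bases differed: A made up 14.0% against 22.6%, C 9.56% against 6.76%, and G 10.1% against 5.28%. Within 100 to 1000 tags A was at 11.8% (6.73 to 19.9) and 11.8% (10.3 to 13.5), with no difference left, C at 10.8% (5.95 to 18.7) and 4.59% (3.66 to 5.74), and G at 7.53% (3.69 to 14.7) and 4.01% (3.15 to 5.10). Low-percentage sites came in dense groups and high-percentage sites did not. With 1 site taken per 50-nt cluster, 2673 high-percentage and 7307 low-percentage sites remained, and T was deleted at 66.4% and 77.3%. This setting changed mainly the low-percentage set, and the effect of which site was taken was not tested. The shares of T within 100 to 1000 tags were 69.9% and 79.6%. The near equality over all sites did not hold under either of these settings, in both of which T was deleted less often at high-percentage sites.

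Single-base deletions outside any run were more frequent at high-percentage sites, while runs of 3 T were about equally frequent. The deleted base stood alone, with no equal neighbour, at 619 high-percentage sites, 22.6% (21.1 to 24.2), and at 15.5% (14.9 to 16.0) of the others, and a run of exactly 3 T was present at 25.9% and 26.8%. Within 100 to 1000 tags the deleted base stood alone at 14.0% (8.35 to 22.5) and 10.4% (9.03 to 12.1), intervals that overlapped. Among the 619 single-base sites T was deleted at 32.1%, C at 28.9%, G at 21.6% and A at 17.3%. With its neighbours, the most frequent deleted run was ATTTA, at 146 high-percentage sites, 5.33%, against 6.52% of low-percentage sites. CAAT and TAAAT, both part of AT-rich contexts with a deleted A, were at 1.61% and 0.985% of high-percentage sites against 4.43% and 3.26% of the others. CTC and GTG were at 1.42% and 1.31% against 0.644% and 0.622%.

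**Figure D3:**
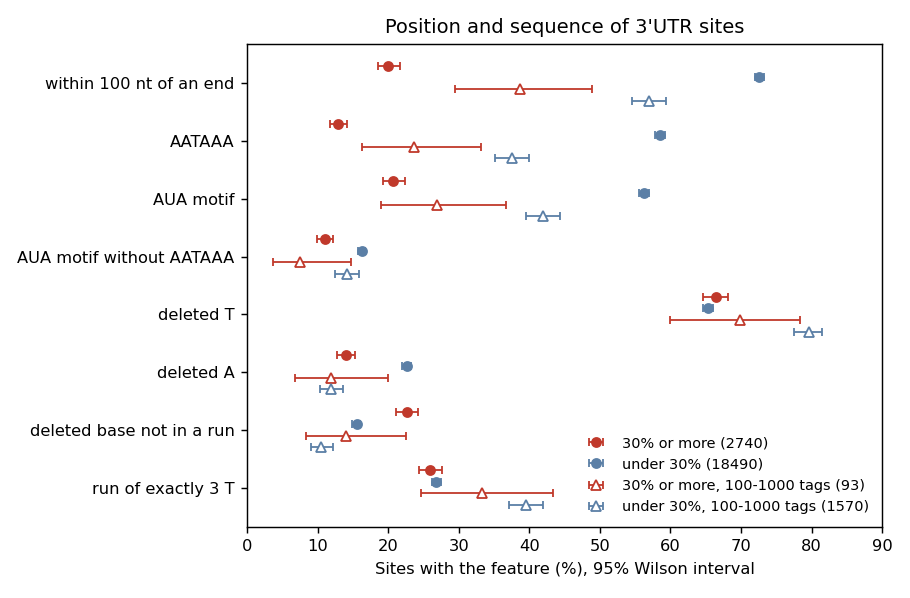
Percentage of sites with each feature (x axis, bars are 95% Wilson intervals) for high-percentage (red) and low-percentage (blue) sites, over all depths (filled circles) and within 100 to 1000 tags (open triangles). The widest gaps over all depths, 20% against 72.6% near an end and 12.9% against 58.5% for AATAAA, narrow to 38.7% against 57.0% and 23.7% against 37.5% within 100 to 1000 tags, where median depth was 127 against 573 tags.

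The placement of the sites in the annotation differed as well. Of the high-percentage sites 85.1% (83.7 to 86.4) lay in the 3′UTR of the representative transcript of the gene, against 97.9% of low-percentage sites. A group of 189, 6.90% (6.01 to 7.91), lay in a 3′UTR only through transcripts annotated as targets of nonsense-mediated decay, in which sequence that other isoforms translate or splice out counts as 3′UTR. The same was true of 75 low-percentage sites, 0.406%. Among every-tag sites the share was 9.49% and among sites of 30 to 50% it was 2.56%. In the range of 100 to 1000 tags the representative transcript held 91.4% (83.9 to 95.6) and 95.1% (93.9 to 96.1) of sites, and decay targets alone held 2.15% (0.592 to 7.51) and 0.573% (0.302 to 1.09), and both pairs of intervals overlapped.

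Uniqueness in the reference genome was alike in both kinds. The 41 nt around the deleted base occurred at more than 1 place in hg38 for 32 high-percentage sites, 1.17% (0.828 to 1.64), and for 1.53% of low-percentage sites. The same stretch with the deleted base left out occurred elsewhere for 0 of 2740 high-percentage sites, which allows a share of up to 0.109% by the rule of 3 counts over the total and 0.140% as the upper Wilson limit, and for 1 of 18490 low-percentage sites. Only exact matches were counted, so places with a further mismatch were not included. A tag that matched another place exactly without the base could be placed there with no deletion. Such sites were therefore unlikely to be listed, and these counts cannot decide whether tags came from elsewhere.

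High-percentage sites were solitary, a trait that is not independent of the selection on the percentage of tags. How much of it follows from the rule was not tested. With listed sites of a strand joined when 50 nt or less apart, 2637 of 2740, 96.2%, had no other 3′UTR site in their cluster, against 19.0% of low-percentage sites, and 44 shared a cluster with a low-percentage site. They were spread over 2203 genes, of which 1766 had 1 such site, 358 had 2 and 79 had 3 or more. Of the 2740 sites, 32 lay in the 3′UTRs of more than 1 gene and were counted for the gene with the nearest downstream end.

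The genes fell into 3 classes by the kind of 3′UTR sites they had. Of 6272 genes with any 3′UTR site, 834 had only high-percentage sites, 13.3%, a share fixed by the same percentages that chose the sites. Another 1369 genes had both kinds, and 4069 had only low-percentage sites. The 834 genes held 946 high-percentage sites, and 735 of them had a single site. Their deepest site had a median of 21 tags, against 5653 in genes with both kinds and 3782 in genes with only low-percentage sites. In all but 39 of the 834 genes, no site of 100 tags or more was listed.

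Their 3′UTRs were long. The median annotated 3′UTR, merged over transcripts, was 3606 nt (quartiles 2021 and 5926) in genes with only high-percentage sites and 4017 nt (quartiles 2601 and 6253) in genes with both kinds, against 2110 nt (quartiles 1040 and 3842) in genes with only low-percentage sites. A 3′UTR under 500 nt occurred in 23 of 834, 14 of 1369 and 402 of 4069 genes. Genes with both kinds have at least 2 sites by definition, and had a median of 4. The median was 1 site in genes with only high-percentage sites and 2 in genes with only low-percentage sites.

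High-percentage sites of the 2 gene classes did not lie in the same places. In genes with only such sites 316 of 946, 33.4% (30.5 to 36.5), were within 100 nt of an end, against 233 of 1794, 13.0% (11.5 to 14.6), in genes with both kinds. AATAAA was present at 21.4% (18.9 to 24.1) and 8.47% (7.27 to 9.85), and the median distance to an end was 402.5 and 878.5 nt. Tag depth was similar, with medians of 20 and 19 tags, and T was deleted at 65.6% and 66.7%. The 2 sets of sites met the same percentage rule at like depth and differed in position and in AATAAA. The gene classes themselves rest on whether a low-percentage site was listed. In genes with both kinds 63.8% of the low-percentage sites lay within 100 nt of an end, so class and position are not independent. The part of the class definition in these differences was not tested.

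The 10 genes with only high-percentage sites that had the most deletions were led by SNAPC5, a subunit of the complex that activates small nuclear RNA transcription. Its single site, with the sequence taaataaaTTTataagtagcc, held 605 deletions in 1696 tags (35.7%), 363 nt from an end and beside an AATAAA. ST3GAL2, a sialyltransferase, had a site with 134 deletions in 351 tags (38.2%) and another with 13 in 13. TTC39B, a tetratricopeptide repeat protein, had 66 in 176 tags (37.5%) and 43 in 112 (38.4%) at sites 7946 and 7980 nt from an end. The deepest sites of these 3 genes stood far above the class median of 21 tags.

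GDAP2 had 3 sites, with 66 deletions in 214 tags (30.8%), 23 in 51 (45.1%) and 11 in 12 (91.7%), at 30, 68 and 485 nt from an end, all in a 3′UTR that the representative transcript does not use. WDSUB1, a WD-repeat and U-box protein, had 99 in 194 tags (51.0%) in a run of 6 A, 43 nt from an end. SS18L1, a subunit of neuronal chromatin remodelling complexes, had 64 in 176 (36.4%) in a run of 9 T and 26 in 55 (47.3%). In GDAP2 and SS18L1 the percentage was higher the shallower the site. ST3GAL2, TTC39B, PCNX2 and KIAA0408 showed the same order and NFYB did not. The list held no low percentages at low depth, so this order is favoured by the listing.

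PCNX2, a membrane protein of the pecanex family, had 36 deletions in 114 tags (31.6%), 23 in 23 and 22 in 26 (84.6%). All of these PCNX2 sites lay outside the 3′UTR of its representative transcript. The last counts as 3′UTR only through a decay-target transcript. NFYB, a subunit of the NF-Y factor that binds CCAAT boxes, had 57 in 58 (98.3%), 13 in 26 (50%) and 9 in 9. RAPGEF5, an exchange factor for Rap GTPases, had 73 in 138 (52.9%), and KIAA0408 had 50 in 115 (43.5%) and 23 in 39 (59.0%), in sequence that also belongs to the 3′UTR of another gene. NFYB held the only site among these 10 genes with more than 50 tags and a percentage above 90%.

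In genes with both kinds of sites position could be compared within one gene. Depth could not, because tags are the denominator of the selection rule: that the deepest low-percentage site had a median of 258 times the tags of the deepest high-percentage site (quartiles 95.4 and 677) is a description. A low-percentage site was the one nearest an annotated end in 1187 genes, 86.7%. These genes held 6235 low-percentage and 1794 high-percentage sites, and the kind with more sites is more often the nearest by number alone. From a high-percentage site the nearest low-percentage site of its gene was a median of 787 nt away (quartiles 298 and 2052), and 1137 of 1794, 63.4%, had none within 500 nt. The high-percentage sites of these genes therefore lay mostly more than 500 nt from a listed low-percentage site. This separation is not independent of the selection rule either. At a deeply covered base, many more deletions are needed to reach the same percentage. How much of the separation follows from the rule was not tested.

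LAMP2, a lysosomal membrane protein, had the most high-percentage sites, 7, with 9, 11, 30, 14, 10, 15 and 26 tags in order from the gene end. All tags carried the deletion at 6 of them and 19 of 30 at the other. Its 17 low-percentage sites had 3573 to 17928 tags and formed dense groups between 4802 and 5029 nt and between 10356 and 10416 nt upstream of the gene end. No high-percentage site lay inside either group, and 5 of the 7 lay downstream of both.

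CCND1, which encodes cyclin D1, a driver of cell cycle entry, had 6 high-percentage sites with 10 to 49 tags between 987 and 3101 nt from the end. At 3 of them every tag was deleted, as at catgtacttgTTTgcaagcag with 10 tags and aaaggttgctGtttcacaata with 25. Its 12 low-percentage sites had 1237 to 30534 tags, 8 of them within 60 nt of the end. None of the 6 fell in that terminal group.

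ITGAV, the integrin alpha V chain, also had 6, with 7 to 51 tags and percentages from 45.1 to 100%, beside 4 low-percentage sites with 13073 to 24476 tags. NUCKS1, a nuclear DNA-binding protein, had 5 with 7 to 111 tags beside 27 low-percentage sites with 756 to 45702 tags. One of its high-percentage sites, with 34 deletions in 46 tags, lay within 50 nt of a site with 88 deletions in 2616 tags. That neighbourhood was an exception, since only 44 high-percentage sites in all lay within 50 nt of a low-percentage one.

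ARF6, a small GTPase of endocytic traffic, had 4 every-tag sites with 26, 16, 11 and 8 tags, 2673, 1920, 1258 and 496 nt from the nearest end. Its 4 low-percentage sites had 423 to 7785 tags. GNG12, a G protein gamma subunit, also had 4, with 28 deletions in 28 tags, 7 in 7, 39 in 102 and 11 in 28, and PTPRJ, a receptor tyrosine phosphatase, had 4 with 39.0 to 100%. These 3 genes were taken from 7 that tied at 4 sites, as those with the most deletions. ASPH, an aspartyl and asparaginyl hydroxylase, had 5 with 7 to 23 tags, 3 of them outside the 3′UTR of its representative transcript. The depth gap in these genes is not independent of the listing and the selection, since no low-percentage site of the list had under 110 tags. The placement of high-percentage sites outside the deeply covered groups is not independent of them either. Their part in the depth gap and in the placement was not tested.

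**Figure D4:**
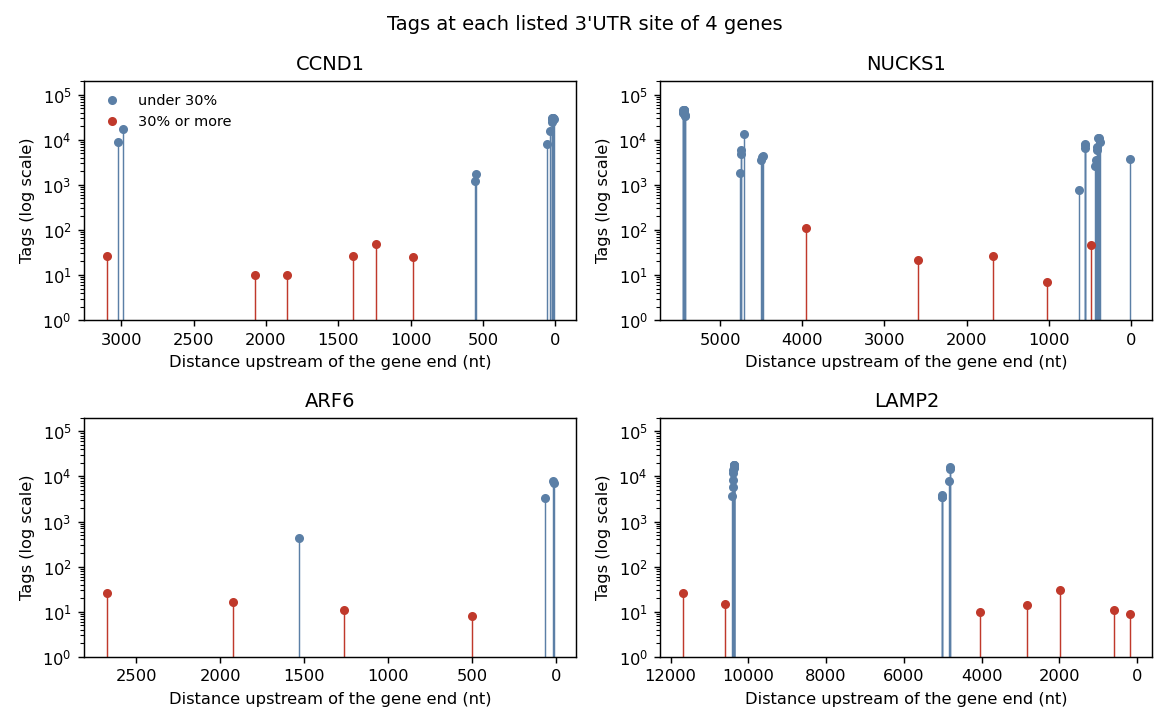
Tags (y axis, log scale) at each listed 3′UTR site of CCND1, NUCKS1, ARF6 and LAMP2 by distance upstream of the gene end (x axis, nt, the end at the right), with high-percentage sites in red and low-percentage sites in blue. The high-percentage sites have 7 to 111 tags and mostly lie outside the groups of low-percentage sites, which have 423 to 45702 tags.

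A few high-percentage sites were deep and lay at transcript ends. ZFP36L1, a protein that binds AU-rich elements and promotes mRNA decay, had 7182 deletions in 23840 tags (30.1%) in a run of 10 A, 13 nt from an end. G0S2, an inhibitor of adipose triglyceride lipase, had 3159 in 9005 tags (35.1%) in a run of 7 A, 20 nt from its end, and its 2 low-percentage sites had 8767 and 7190 tags. FOXF2, a forkhead transcription factor, had 822 in 2470 tags (33.3%) in a run of 8 T, 32 nt from its end, against 1055 and 814 tags at its low-percentage sites. DIS3, the ribonuclease of the RNA exosome, had 404 in 1132 tags (35.7%) 14 nt from an end. Among the 1369 genes with both kinds, G0S2 and FOXF2 were the 2 in which the deepest site was a high-percentage one.

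Of the other genes with many deletions at a high-percentage site, TADA2B, an adaptor of histone acetyltransferase complexes, had 193 in 468 tags (41.2%), 53 nt from an end. IRF1, an interferon-responsive transcription factor, had 95 in 279 (34.1%) in a run of 4 G, 1470 nt from an end. PSMC6, an ATPase of the 26S proteasome, had 87 in 105 tags (82.9%) 23 nt from an end, at tatatcatctGGcaataaaag, where AATAAA follows the deleted run. PSMC6 had by far the highest percentage of the 3.

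Gene families differed in how often they had only high-percentage sites. Against 13.3% (12.5 to 14.2) of all genes with a 3′UTR site, the share was 37.0% (29.4 to 45.4) among zinc-finger genes, 50 of 135. Their low-percentage sites had a median of 2111 tags, the lowest of the 14 families, and their high-percentage sites a median of 20. ZNF749 had 61 deletions in 61 tags at attgaaacacAAtgataagta, ZNF418 had 54 in 89, ZNF507 had 42 in 85 and 15 in 18, and ZNF326 had 27 in 29 with 2 further sites. The first 2 of these genes had no low-percentage site.

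Among ubiquitin-specific proteases, which remove ubiquitin from proteins, 7 of 23 genes had only high-percentage sites (30.4%, interval 15.6 to 50.9). Among ion channels and neurotransmitter receptors it was 5 of 12 (41.7%, 19.3 to 68.0). USP38 had 33 in 52 and 29 in 50, USP13 had 37 in 103, and the potassium channel genes KCNG3 and KCNN2 had 21 in 58 and 21 in 56, 0 and 4 nt from an end and both beside an AATAAA. TMEM genes, at 14 of 87 (16.1%, 9.83 to 25.2), and solute carriers, at 13 of 107 (12.1%, 7.24 to 19.7), had intervals that included the share of all genes. Small families left wide intervals.

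At the other end were housekeeping families. None of 60 cytosolic ribosomal protein genes (0%, up to 6.02), 41 mitochondrial ribosomal protein genes (up to 8.57), 28 proteasome genes or 28 DEAD-box and DEAH-box helicase genes (each up to 12.1) had only high-percentage sites. Of the cytosolic ribosomal protein genes 8 had both kinds. Over all 60, the 10 high-percentage sites had a median of 28 tags and the 284 low-percentage sites one of 19820.5. RPS23 had 57 deletions in 90 tags beside 14 low-percentage sites with 38423 to 74380 tags, and RPL37A had 48 in 77 and 24 in 24 beside 10 with 12815 to 37669. RPS29 had 52 in 56 and 23 in 23, at 6378 and 5523 nt from its nearest end, both in a 3′UTR its representative transcript does not use.

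Respiratory chain and ATP synthase genes had 3 of 56 (5.36%, 1.84 to 14.6). One of them was ATP5MC1, a subunit of the ATP synthase ring, with 49 deletions in 132 tags at gaggctccatGGGGGGGtcac, a run of 7 G. RAB GTPases, which direct vesicle traffic, had 3 of 29, and F-box and kelch-like genes, which include substrate receptors of ubiquitin ligases, had 4 of 36. Kinesins had 2 of 17 and integrins and collagens 1 of 18, and all these intervals included 13.3%. Median 3′UTR length, over all annotated members of a family, ran from 726 nt in the respiratory chain genes to 2935 nt in the kinesins and was 2514 nt in the zinc-finger genes, and the part of length and depth in these shares was not tested.

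**Figure D5:**
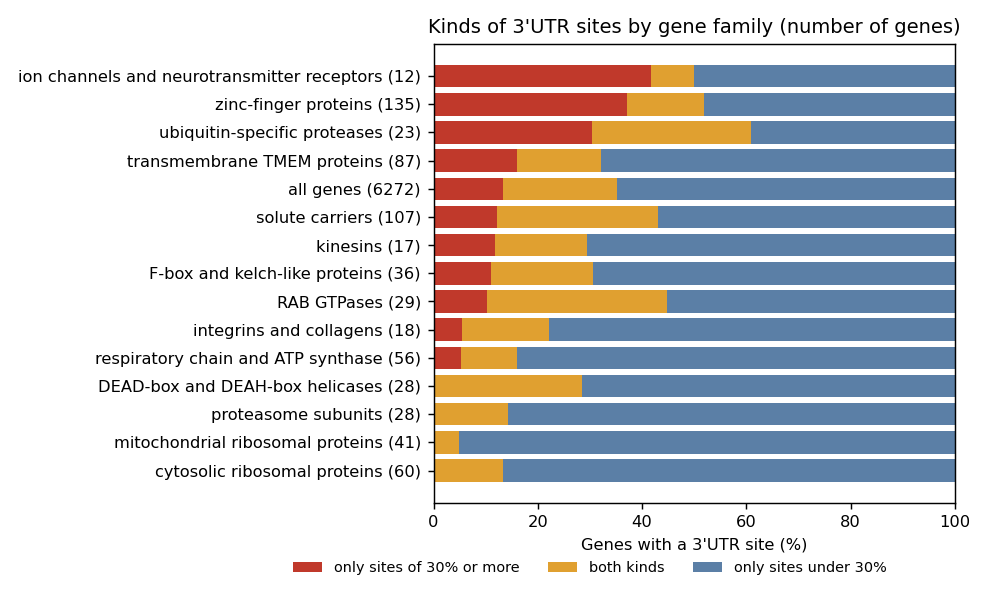
Percentage of genes with a 3′UTR site (x axis) that had only high-percentage sites (red), both kinds (orange) or only low-percentage sites (blue), by gene family with the number of genes in brackets. Zinc-finger genes reach 37.0% with only high-percentage sites, all genes 13.3%, and 4 families 0%.

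Genes that mark this mesenchymal-like line are given by their sites, to be read against the 12.9% of high-percentage sites among all 3′UTR sites. VIM, which encodes the mesenchymal filament protein vimentin, had 14 3′UTR sites with 4798 to 57472 tags and none was high-percentage. CD44, a hyaluronan receptor, had 1 high-percentage site of 30, with 11 deletions in 27 tags. CAV1, the caveolar coat protein, had 3 of 32, with 10 in 16, 16 in 40 and 13 in 29. Only the last of these CAV1 sites lay in the 3′UTR of its representative transcript. The first counts as 3′UTR only through a decay-target transcript. AXL and ANXA1 had 3 and 13 sites, all low-percentage. SPARC, a matrix glycoprotein, had a single site with 51 deletions in 52 tags. Among luminal breast genes ESR1, PGR, ERBB2 and FOXA1 had no 3′UTR site. GATA3 and KRT18 had 1 low-percentage site each, with 744 and 2873 tags, both deeper than the SPARC site.

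The RBMS family itself was split. RBMS3 had only high-percentage sites in its own 3′UTR, with 28 deletions in 40 tags at tcccctgtctCCacataccag, which counts as 3′UTR only through a decay-target transcript and lies 93696 nt from an annotated end, and 8 in 9 at aaataagttaTTccatgcttt, 482 nt from an end. The cells also expressed RBMS3 from the transduced vector. RBMS1 had 5 low-percentage sites with 1516 to 4895 tags and RBMS2 had 1 with 216 deletions in 1986 tags. TXNIP, an inhibitor of thioredoxin that the study followed as an RBMS3 target, had 3 sites with 9284 to 10388 tags and deletions in 0.605 to 7.47% of them. None of its sites was high-percentage.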

How the data were processed

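The deposited file lists crosslinking-induced deletion sites with 2 counts each, the unique tags that cover the base and the tags with the deletion. Per the study's methods and labels, the authors appended molecular identifiers to the reads, ran the CLIP Tool Kit on hg38, merged both replicates and kept sites with a false discovery rate under 10% and a fold change over 10, the reference of which is not stated. The version of the kit is not given in the sources used here. Filtering of this kind sets which percentages can appear at low depth.

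The deleted base was taken as the centre of each 21-nt interval and placed in same-strand 3′UTRs of GENCODE release 44. Sites in several genes went to the gene with the nearest downstream 3′ end. Distances are genomic, with introns included, to the nearest annotated end of a transcript of that gene that has a 3′UTR. Motifs were searched in 25 nt on each side of the deleted base, and 20-nt arms were searched exactly on both strands of 25 chromosomes of the reference, which is not the genome of the cell line. Deletion percentages used the counts as deposited. Shares carry 95% Wilson intervals and differences 95% Newcombe intervals, without a test, because the pooled list holds no replicate values. The sites, gene lists and comparisons were chosen with earlier results of these data known, so they are descriptions. Named genes were TXNIP, the 10 genes with only high-percentage sites and the most deletions, the 8 genes with the most such sites (ties by more deletions), the 8 genes with both kinds and the most deletions at 1 such site, the 3 sites on each side of the threshold, up to 4 genes per family, cell line markers and RBMS genes. Families were matched by gene symbol, so the ribosomal list includes RPL7L1, and integrin-binding proteins were left out. Sequences were not printed from 1 chromosome. Alternatives were cutoffs of 20 and 50%, at least 20 deletions, at least 100 tags, 1 site per cluster, the representative transcript of each gene, exclusion of every-tag sites, and 100 to 1000 tags in both kinds. The genome search was checked on simulated data. The software was Python 3.11.15 with matplotlib 3.10.9, pysam 0.24.0, scipy 1.17.1, numpy 2.4.6, numba 0.67.0 and pandas 2.3.3, and samtools 1.23.1.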

Additional observations from a re-analysis of the deposited data

How the results depend on the processing

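The number of genes with only high-percentage sites, 834 of 6272, was 897 and 683 of the same total at cutoffs of 20 and 50%. It was 319 of 5757 with at least 20 deletions per site and 39 of 5477 with at least 100 tags. Without every-tag sites it was 464 of 5902. Within 100 to 1000 tags, a range chosen after seeing the data, it was 79 of 1488. Each of these 4 settings removed sites. The last also dropped low-percentage sites of over 1000 tags, so genes with both kinds could count as having only high-percentage sites. The differences in position, AATAAA and the AUA element kept their sign under all 8 alternatives. Within 100 nt of an end the difference was -48.5 points with at least 20 deletions, -31.8 with at least 100 tags, -49.1 with 1 site per cluster, -54.4 in representative transcripts, -49.2 without every-tag sites and -18.3 within 100 to 1000 tags. In the same order, leaving out the cluster and representative settings, the difference was -42.9, -32.0, -42.6 and -13.8 for AATAAA and -32.6, -26.7, -31.8 and -15.0 for the AUA element. The share of deleted T differed by 4.05 points with at least 100 tags, -10.9 with 1 site per cluster and -9.66 within 100 to 1000 tags, against 1.01 over all sites. The cause was not tested. Deleted forms elsewhere in the genome stayed at 0 for high-percentage sites in every setting, with the limit on this search stated above. No paired analysis was possible because both replicates were pooled into 1 list, and for the same reason neither replicate could be left out. Only 93 high-percentage sites lay within 100 to 1000 tags, so the intervals there are wide, and their median depth, 127 tags, stayed below the 573 of low-percentage sites.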
